A study of Homo sapiens with 6 samples.

Results

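The ID genes and the core of the bone morphogenetic protein (BMP) pathway, 10 genes chosen by name, were followed in LN229 cells, an established human glioblastoma cell line, under ursodeoxycholic acid (UDCA), a hydrophilic bile acid that is given to patients with cholestasis. The genes were ID1, ID2, ID3, ID4, BMP2, BMP4, BMPR1A, BMPR2, SMAD1 and SMAD6, and all 10 were found among the 33890 genes of the deposited table, by their GENCODE 29 symbols. There were 2 groups of 3 libraries of polyadenylated RNA: LN229 cells exposed to 800 µM UDCA for 48 h, and LN229 cells without UDCA, both grown in DMEM with 10% fetal bovine serum. The line is a single tumour-derived culture, labelled grade IV glioma, and the labels do not say whether replicates were separate cultures, so each p-value below speaks only of the spread between these libraries, which may be technical.

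BMPs are secreted dimers that bring together type I receptors (BMPR1A, BMPR1B, ACVR1) and type II receptors (BMPR2, ACVR2A, ACVR2B) on the cell surface. The type I receptor kinase phosphorylates SMAD1, SMAD5 and SMAD9, which join SMAD4 and enter the nucleus, where the ID genes and the inhibitory SMAD6 and SMAD7 are among the best known targets. ID proteins are helix-loop-helix proteins with no DNA-binding region: they pair with basic helix-loop-helix (bHLH) factors, above all the E proteins TCF3, TCF4 and TCF12, and keep them off DNA. In glioma, ID proteins are studied for stem-like growth, and BMP signalling for driving tumour cells towards a glial fate.

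All 4 ID genes and SMAD6 were lower with UDCA, while the ligand gene BMP2 was 10.4-fold higher. The receptor gene BMPR2 and the ligand gene BMP4 were lower, SMAD1 was higher, and the receptor gene BMPR1A did not pass the test. In counts, 2 of the 10 genes were higher, 7 were lower and 1 did not pass at an adjusted p under 0.05 (limma-trend on log2(FPKM + 1), Benjamini-Hochberg over 14380 tested genes). FPKM, the unit of the table, is reads scaled by how long a gene's exons are and how many reads its library holds. Much of the transcriptome differed too: 80.8% of all tested genes passed, 45.1% higher and 35.7% lower. A call alone thus sets no gene apart, and 9 of 10 is near that background. The 10 genes had a median log2 change of -0.63, against 0.095 for all tested genes. A call together with a difference of at least 1 on the log2(FPKM + 1) scale was seen for ID1, ID3 and BMP2 (3 of 10), and for 24.3% of all tested genes. That count moved with the scale: ID2 joined with median-ratio scaling (4 of 10, against 23.8% of tested genes), with quantile normalization (4, against 24.0%) and without the second UDCA library (4, against 24.4%), and SMAD6 joined as well with a pseudocount of 0.1 (5, against 32.6%) and with voom on recovered reads (5, against 33.7%). The groups did not overlap for 9 of the 10 genes, against 82.8% of tested genes. No gene owed its test to one group: each of the 10 was at or above 1 FPKM in all 6 libraries, where tests needed that level in 3.

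**Figure D1:**
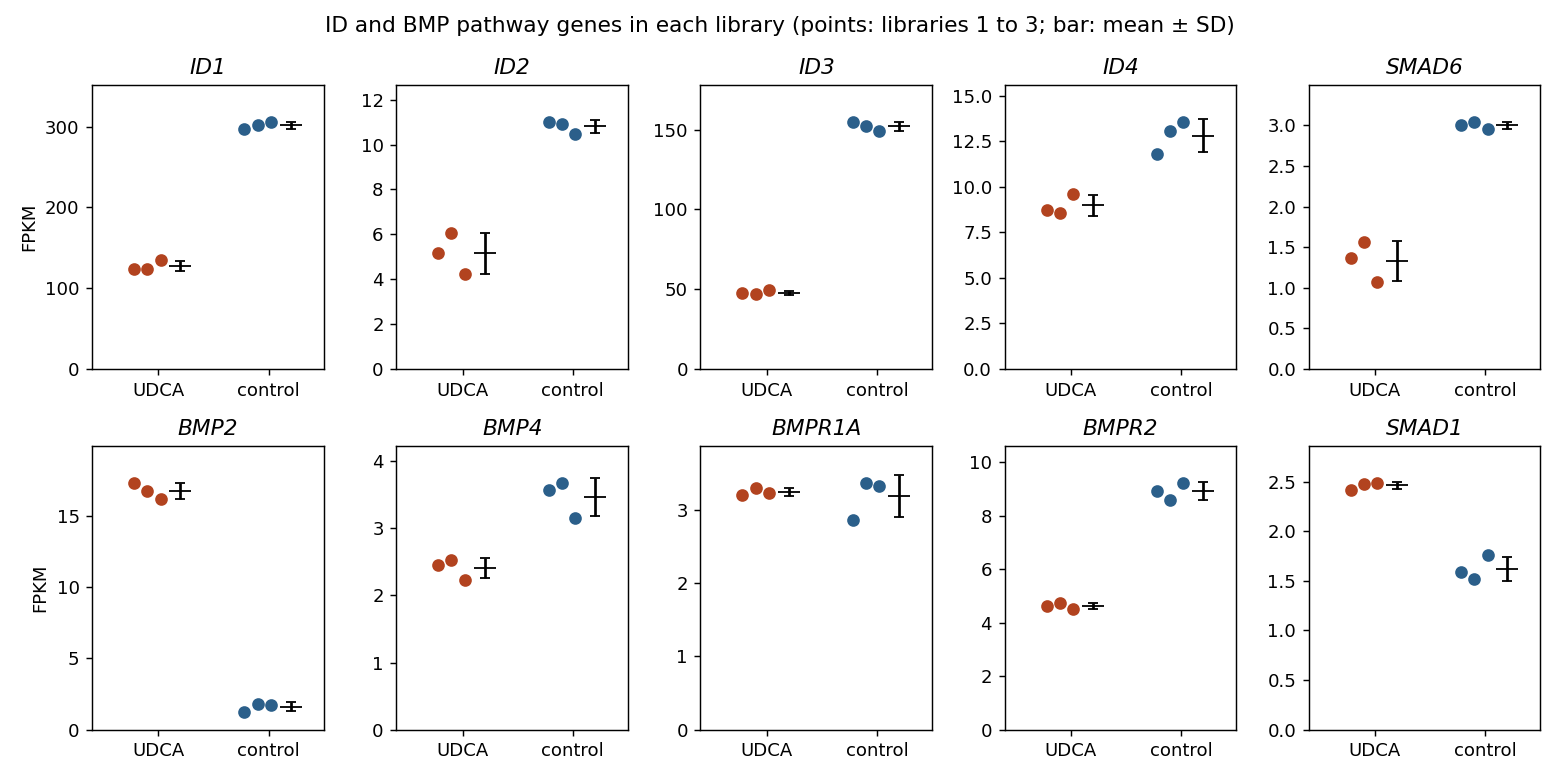
Level of each of the 10 genes in FPKM (vertical axes, from 0) in the 3 UDCA and the 3 control libraries; points are libraries, bars the mean ± SD. UDCA points lie below all control points for ID1, ID2, ID3, ID4, SMAD6, BMP4 and BMPR2, above them for BMP2 and SMAD1, and among them for BMPR1A.

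Since the 4 ID genes moved the same way, the 150 bases just before the RefSeq start of each are shown here (GRCh38.p14, written 5′ to 3′ on the strand of the gene). They lie at chr20:31605139-31605288 (plus strand) for ID1, chr2:8681906-8682055 (plus) for ID2, chr1:23559502-23559651 (minus) for ID3 and chr6:19837220-19837369 (plus) for ID4. Capitals mark matches, on either strand, to 4 motifs: the TATA box with the letters TATAAA, the CCAAT box, a half-site written TGACG, and a SMAD element written GGCGCC. Overlapping matches run together.
ID1: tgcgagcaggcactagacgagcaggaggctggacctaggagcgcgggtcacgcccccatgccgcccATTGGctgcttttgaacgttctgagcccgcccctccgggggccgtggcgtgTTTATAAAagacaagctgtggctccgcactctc
ID2: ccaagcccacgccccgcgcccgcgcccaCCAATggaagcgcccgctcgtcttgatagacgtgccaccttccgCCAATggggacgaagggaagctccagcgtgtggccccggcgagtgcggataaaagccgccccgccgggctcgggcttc
ID3: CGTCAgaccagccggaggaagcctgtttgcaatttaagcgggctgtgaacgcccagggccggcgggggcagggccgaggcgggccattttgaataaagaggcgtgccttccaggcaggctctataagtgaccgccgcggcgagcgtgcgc
ID4: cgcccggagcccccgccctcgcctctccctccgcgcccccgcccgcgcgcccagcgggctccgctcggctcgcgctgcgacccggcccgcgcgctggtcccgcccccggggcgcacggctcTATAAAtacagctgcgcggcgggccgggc
The TATA box, counted only with the exact letters TATAAA, was present in ID1 and ID4, close to the start in both. Anywhere in the window, on either strand, it was present in 6.71% of the 35116 promoters of the same length. In ID1 it overlapped a second match on the other strand. CCAAT was present once in ID1 and at 2 places in ID2, as in 23.5% of promoters. The TGACG half-site of cyclic AMP response elements that ATF and CREB factors read was present only in ID3 of these 4, as in 15.4% of promoters, and overlapped there a match to CAGAC, the short SMAD box, held by 23.6%. GGCGCC, the core of the GC-rich element that SMAD1 and SMAD5 bind, was in none of the 4 windows (11.7% of promoters). E-box letters CANNTG, read by bHLH factors, were found in ID4 only (44.2% of promoters). The windows held 64.0% G and C in ID1, 70.7% in ID2, 65.3% in ID3 and 83.3% in ID4, against a median of 60.0% over all promoters. These matches describe letters within 150 bases. They say nothing about binding, nor about sequence further from the start, which was not searched. The RefSeq start lay 3211 bases from the upstream edge of the GENCODE gene for ID2 and 293 for ID3, and 6 and 16 bases from it for ID1 and ID4. A GENCODE gene spans all its transcripts, so these distances do not compare the starts of single transcripts.

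ID1 (ENSG00000125968, chromosome 20, 31605283 to 31606515, GRCh38), the best known BMP target of the family, was the most abundant of the 10 genes in both groups. ID1 stood at 124.2, 124.2 and 134.5 FPKM in UDCA libraries 1 to 3, against 296, 302 and 306 FPKM in control libraries 1 to 3. The groups lay far apart, and the third UDCA library was the highest of its group. The means were 128 ± 5.97 FPKM with UDCA and 301 ± 4.63 FPKM in control (SD, n = 3 each), 2.36-fold lower with UDCA, and the log2 change was -1.23 (SE 0.035, adjusted p = 1.04e-07, limma-trend). Among tested genes, 8.84% had a smaller (more negative) change.

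ID3 (ENSG00000117318, chromosome 1, 23557918 to 23559794), usually expressed together with ID1, fell the most of the ID genes. ID3 stood at 47.4, 46.8 and 49.1 FPKM in UDCA libraries, against 155, 152 and 149 FPKM in control libraries. Neither group spread by more than a few percent of its mean, and they did not overlap. The mean was 47.8 ± 1.21 FPKM with UDCA and 152 ± 2.82 FPKM in control (n = 3 each), 3.18-fold lower with UDCA, with a log2 change of -1.65 (SE 0.026, adjusted p = 7.54e-09, limma-trend). Only 5.26% of tested genes had a smaller change.

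ID2 (ENSG00000115738, chromosome 2, 8678845 to 8684453), which binds the retinoblastoma protein as well as E proteins, was much less abundant. ID2 stood at 5.16, 6.07 and 4.25 FPKM in UDCA libraries, against 11.01, 10.9 and 10.5 FPKM in control libraries. The UDCA libraries were spread widely, with the third lowest, yet each was well below every control library. The change was 2.10-fold lower by the means, or -0.95 on the log2 scale (SE 0.10, adjusted p = 0.000106, limma-trend). An antisense gene, ID2-AS1, covers 1.72% of the exon bases of ID2, and no source used here says whether reads were counted by strand.

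ID4 (ENSG00000172201, chromosome 6, 19837386 to 19840684), a regulator of neural progenitors and of astrocyte fate, moved the least of the family. ID4 stood at 8.75, 8.56 and 9.63 FPKM in UDCA libraries, against 11.8, 13.0 and 13.6 FPKM in control libraries. The groups did not overlap, though the gap was small. The mean was 8.98 ± 0.568 FPKM with UDCA and 12.8 ± 0.894 FPKM in control (n = 3 each), 1.43-fold lower with UDCA, with a log2 change of -0.47 (SE 0.062, adjusted p = 0.000323, limma-trend).

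Summed over the 4 genes, ID transcripts came to 186, 186 and 198 FPKM in UDCA libraries, against 474, 478 and 479 FPKM in control libraries, 2.52-fold lower by the means. The make-up of that sum, which no scaling between libraries can change, differed as well. ID3 made up 25.2% ± 0.330 of it with UDCA and 31.9% ± 0.752 in control, a difference of -6.66 percentage points. ID1 made up 67.3% ± 0.677 with UDCA and 63.2% ± 0.648 in control, and ID4 made up 4.73% ± 0.131 with UDCA and 2.68% ± 0.174 in control. For each of these 3 the groups did not overlap, which gives an exact permutation p of 0.1 (2-sided), the smallest that 3 against 3 libraries allow, and 0.125 after adjustment over the 5 shares tested. ID2 took 2.78%, 3.27% and 2.15% in UDCA libraries and 2.32%, 2.29% and 2.19% in control libraries, which overlapped (exact permutation p = 0.4).

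**Figure D2:**
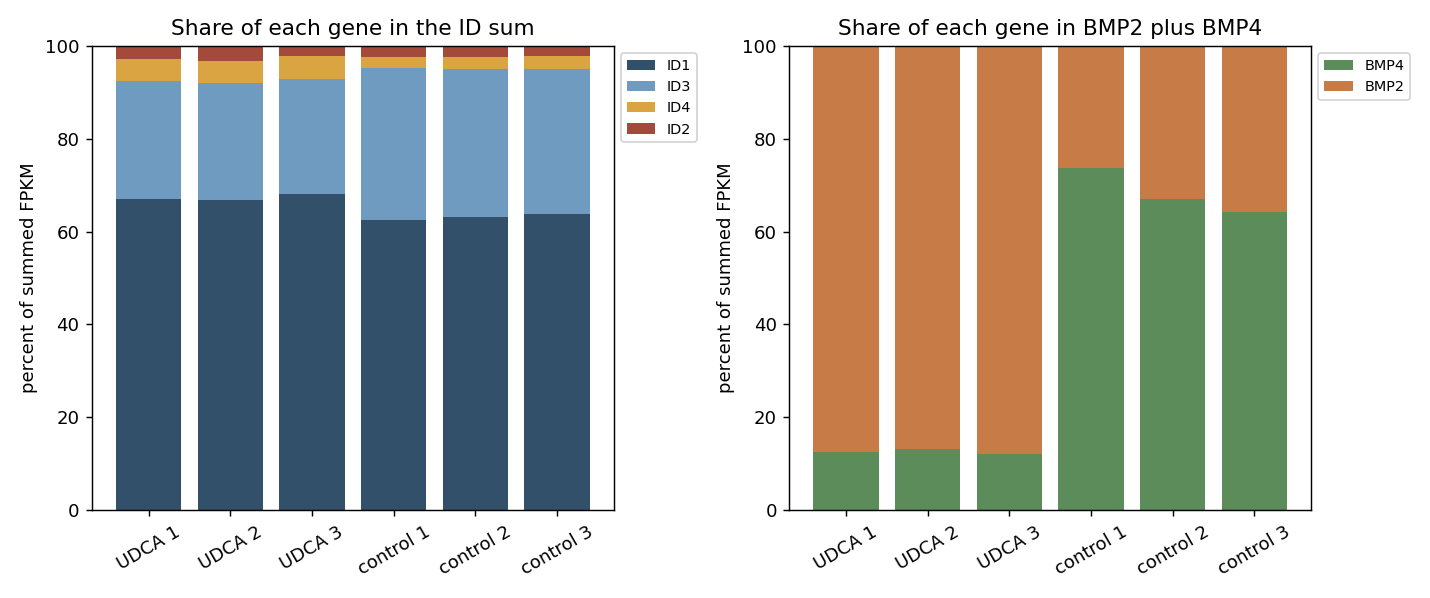
Percent of the summed ID FPKM held by each ID gene (left) and of the BMP2 plus BMP4 FPKM held by each ligand (right), 1 stacked bar per library. ID1 holds 66.9% to 68.1% in UDCA libraries and 62.5% to 63.8% in control libraries. BMP4 holds 12.2% to 13.2% in UDCA libraries and 64.2% to 73.8% in control libraries.

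SMAD6 (ENSG00000137834, chromosome 15, 66702228 to 66782848), the inhibitory SMAD that is itself a BMP target, was lower. SMAD6 stood at 1.37, 1.56 and 1.07 FPKM in UDCA libraries, against 3.00, 3.04 and 2.95 FPKM in control libraries. Like ID2, it was most spread in the UDCA group and lowest in the third UDCA library, with no overlap between groups. It was 2.25-fold lower by the means, with a log2 change of -0.78 (SE 0.087, adjusted p = 0.000123, limma-trend), or -1.18 with voom.

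BMP2 (ENSG00000125845, chromosome 20, 6767664 to 6780280), a ligand of the pathway with a strong effect on bone formation, moved the other way and furthest of the 10. BMP2 stood at 17.3, 16.7 and 16.2 FPKM in UDCA libraries, on 996, 1026 and 988 reads recovered from the table, against 1.27, 1.81 and 1.75 FPKM in control libraries, on 76, 112 and 112 reads. Every UDCA library was about an order of magnitude above every control library. The mean was 16.7 ± 0.568 FPKM with UDCA and 1.61 ± 0.297 FPKM in control (n = 3 each), 10.4-fold higher with UDCA, with a log2 change of 2.77 (SE 0.086, adjusted p = 1.66e-07, limma-trend). Of the tested genes, 0.862% had a larger log2 change.

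BMP4 (ENSG00000125378, chromosome 14, 53949736 to 53958761), the ligand best known in glioma for pushing stem-like cells towards astrocytic differentiation, was slightly lower. BMP4 stood at 2.46, 2.53 and 2.24 FPKM in UDCA libraries, against 3.57, 3.68 and 3.15 FPKM in control libraries. The groups did not overlap, and the third library was the lowest in each. The log2 change was -0.39 (SE 0.068, adjusted p = 0.00142, limma-trend), 1.44-fold lower by the means. The balance between the ligands turned round: BMP4 held 12.6% ± 0.516 of BMP2 plus BMP4 FPKM with UDCA and 68.3% ± 4.91 in control, a difference of -55.8 percentage points (exact permutation p = 0.1, 2-sided, 0.125 adjusted over the 5 shares).

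BMPR2 (ENSG00000204217, chromosome 2, 202376936 to 202567751), the type II receptor specific to BMPs, was lower. BMPR2 stood at 4.63, 4.73 and 4.50 FPKM in UDCA libraries, against 8.95, 8.59 and 9.24 FPKM in control libraries. Each group was tight and they lay well apart, 1.93-fold lower by the means, with a log2 change of -0.82 (SE 0.041, adjusted p = 1.79e-06, limma-trend).

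BMPR1A (ENSG00000107779, chromosome 10, 86756601 to 86932838), a type I receptor for BMP2 and BMP4, stood at 3.20, 3.31 and 3.24 FPKM in UDCA libraries, against 2.86, 3.37 and 3.33 FPKM in control libraries. The groups overlapped, since the UDCA values fell inside the control range. Its log2 change was 0.023, with a 95% interval of -0.13 to 0.17 (adjusted p = 0.747, limma-trend), and its sign turned under another scaling (-0.047 with median-ratio scaling). Its processed pseudogenes BMPR1AP1 and BMPR1AP2 were listed at 0.071 FPKM or less in every library.

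SMAD1 (ENSG00000170365, chromosome 4, 145481194 to 145558079), which carries the receptor signal to the nucleus, was higher. SMAD1 stood at 2.42, 2.48 and 2.49 FPKM in UDCA libraries, against 1.59, 1.52 and 1.76 FPKM in control libraries. The groups did not overlap, and the UDCA libraries were nearly equal. The log2 change was 0.40 (SE 0.061, adjusted p = 0.000646, limma-trend), 1.52-fold higher by the means. SMAD1-AS1 covers 6.21% of its exon bases.

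Ordered by mean FPKM, which is per exon length, the UDCA libraries ran ID1, ID3, BMP2, ID4, ID2, BMPR2, BMPR1A, SMAD1, BMP4 and SMAD6. Neighbours whose ranges overlapped there were ID2 with BMPR2, and SMAD1 with BMP4. The control libraries ran ID1, ID3, ID4, ID2, BMPR2, BMP4, BMPR1A, SMAD6, SMAD1 and BMP2, with overlap of BMP4 with BMPR1A, BMPR1A with SMAD6, and SMAD1 with BMP2. BMP2 was thus the third of the 10 with UDCA and the last in control.

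**Figure D3:**
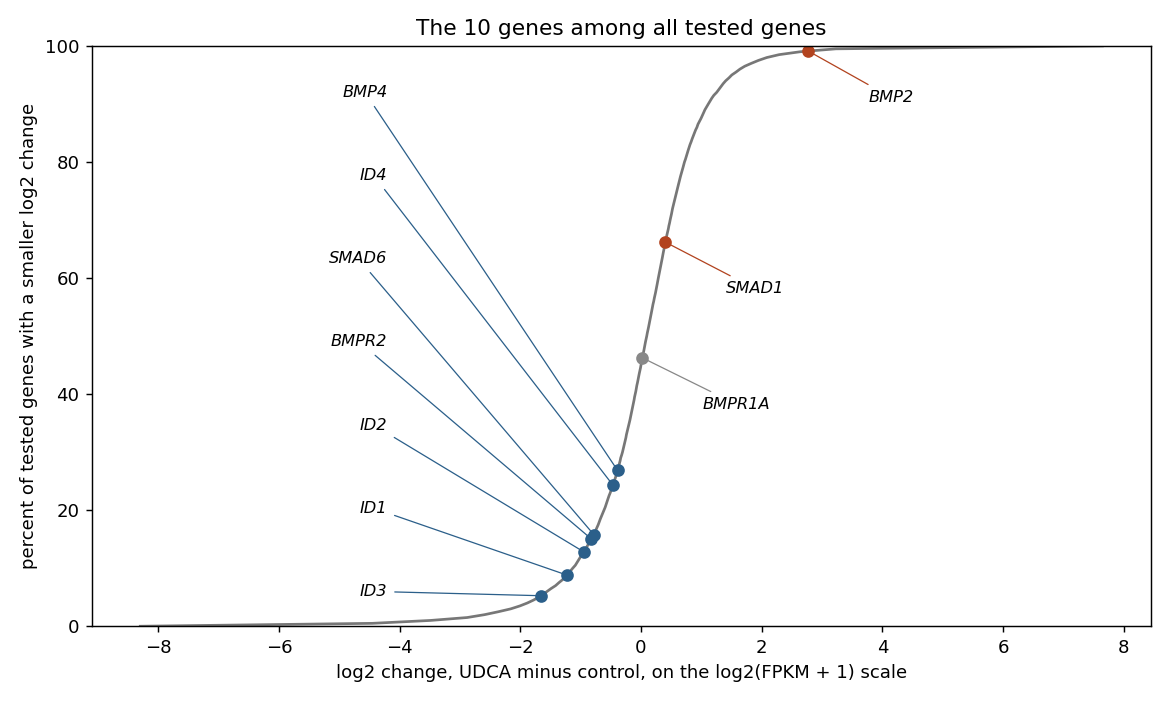
Percent of the 14380 tested genes with a smaller log2 change (vertical axis) against the log2 change (UDCA minus control, from log2(FPKM + 1), horizontal axis), with the 10 genes marked on the curve; blue is lower, orange-red higher and grey not past the test. ID3 sits at 5.26%, ID1 at 8.84% and BMP2 at 99.1%.

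Other genes of the pathway were taken from 7 lists by role, 70 genes in all, of which 63 were listed and 38 tested. Of these 38, 15 were higher, 15 lower and 8 did not pass, so 30 of 38 were called (78.9%, against 80.8% of all tested genes). Of the 38, 4 passed the filter through 1 group alone, so each of those could be called in 1 direction only. The median log2 change of the 38 was 0.047. Of the 25 listed but untested genes, 20 were under 0.5 FPKM in every library, among them the antagonist genes NOG and CHRD, the endothelial receptor gene ACVRL1 and the iron-regulating hormone gene HAMP.

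Among further ligands, 2 were tested, 1 higher and 1 lower (100% called, against 80.8% of all tested genes). BMP6, an iron- and bone-related BMP, stood at 2.07, 2.28 and 2.08 FPKM in UDCA libraries, against 0.454, 0.418 and 0.405 FPKM in control libraries, with a log2 change of 1.14 (adjusted p = 4.47e-06, limma-trend). BMP6 entered the test through the UDCA libraries alone, and the 1 FPKM added before the logarithm shrinks its change: the means differed 5.03-fold, and the log2 change was 2.09 with a pseudocount of 0.1 and 2.31 with voom. BMP8B stood at 3.71, 3.65 and 3.90 FPKM with UDCA, against 13.9, 14.0 and 14.2 FPKM in control (log2 change -1.66). Its near-identical copy BMP8A was untested at 0.60 FPKM or less, so how reads were split between the copies is uncertain.

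Of 6 tested receptors and co-receptors, 4 were higher, 1 lower and 1 did not pass (83.3% called, against 80.8% of all tested genes). ACVR1, the type I receptor mutated in fibrodysplasia ossificans progressiva, stood at 33.7, 33.2 and 32.6 FPKM in UDCA libraries, against 13.1, 12.3 and 11.1 FPKM in control libraries. It was more abundant than BMPR1A, BMPR1B and ACVRL1, the other type I receptor genes of the pathway, in every library, and 2.73-fold higher with UDCA (log2 change 1.38, SE 0.056, adjusted p = 5.94e-07, limma-trend). ACVR1 was 10.0 to 10.5 times BMPR1A in UDCA libraries and 3.33 to 4.57 times BMPR1A in control libraries. The co-receptor gene RGMB was higher (log2 change 0.73), but 45.6% of its exon bases lie in other genes. The TGF-beta and BMP9 co-receptor gene ENG was lower, at 13.9 ± 1.32 FPKM with UDCA and 20.4 ± 0.653 FPKM in control (n = 3 each). The type I receptor gene BMPR1B did not pass, at 2.11 ± 0.253 FPKM with UDCA and 1.80 ± 0.201 FPKM in control (log2 change 0.15, 95% interval -0.058 to 0.36, or 0.23 with voom). RGMA, a co-receptor relative of RGMB, was under the level for testing and was singled out after its values were seen: it had 5, 2 and 7 reads in UDCA libraries and 180, 194 and 189 reads in control libraries.

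The other SMADs had 2 of 3 tested members higher and 1 lower (100% called, against 80.8% of all tested genes). SMAD7, the inhibitory SMAD shared with the TGF-beta branch, stood at 15.0, 13.8 and 15.0 FPKM in UDCA libraries, against 8.90, 8.85 and 8.38 FPKM in control libraries. It was higher with a log2 change of 0.68 (SE 0.043, adjusted p = 5.85e-06, limma-trend), opposite in sign to SMAD6. SMAD4, the common partner, was higher (log2 change 0.42), with UDCA libraries at 8.79, 8.38 and 6.94 FPKM against 5.60 to 5.86 FPKM in control. SMAD5, a partner of SMAD1 in the same role, was lower at 13.2 ± 0.725 FPKM with UDCA and 17.8 ± 0.574 FPKM in control (log2 change -0.41).

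Brakes that act inside or on the cell had 2 of 7 higher, 3 lower and 2 that did not pass. Called brakes made up 71.4%, against 80.8% of all tested genes. The higher ones were SMURF1, at 16.7 ± 0.348 FPKM with UDCA and 10.2 ± 0.260 FPKM in control (log2 change 0.66), and SMURF2. SMURF2 passed narrowly (log2 change 0.14, adjusted p = 0.0454, limma-trend), and its groups overlapped. BAMBI, a pseudoreceptor that is both a brake and a BMP target, stood at 42.1, 48.8 and 39.03 FPKM in UDCA libraries, against 129, 133 and 134 FPKM in control libraries (log2 change -1.59, SE 0.075, adjusted p = 1.26e-06, limma-trend). SKI, a nuclear co-repressor of SMADs, was 2.06-fold lower, at 10.2 ± 0.190 FPKM with UDCA and 21.05 ± 0.727 FPKM in control. FKBP1A, which keeps type I receptors silent, was 1.73-fold lower, with 16.8% of its exon bases in other genes. SKIL, a relative of SKI, did not pass at 10.8 ± 1.29 FPKM with UDCA and 9.25 ± 0.424 FPKM in control (adjusted p = 0.0518, limma-trend), and passed without the third UDCA library (adjusted p = 0.00371) and with voom (adjusted p = 0.00172). PPM1A, a phosphatase of SMADs, did not pass at 5.91 ± 0.375 FPKM with UDCA and 5.25 ± 0.410 FPKM in control (adjusted p = 0.0758, limma-trend). It passed without the third UDCA library (0.0387) or the first control library (0.0264), and with voom (0.00657).

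Secreted antagonists had 1 of 6 tested members higher, 3 lower and 2 that did not pass (66.7% called, against 80.8% of all tested genes). FST, follistatin, which traps activins and some BMPs, stood at 2.93, 2.45 and 2.80 FPKM in UDCA libraries, against 19.2, 18.1 and 15.9 FPKM in control libraries. That is 6.51-fold lower with UDCA (log2 change -2.33, adjusted p = 2.46e-07, limma-trend). CHRDL1, a chordin-like BMP antagonist, was 3.22-fold lower, at 3.44 ± 0.307 FPKM with UDCA and 11.1 ± 0.628 FPKM in control. Its relative CHRDL2 had 82, 77 and 93 reads in UDCA libraries and 0, 0 and 5 reads in control libraries, so it entered the test through the UDCA libraries alone. Its log2 change of 1.34 is set largely by the added 1 FPKM: it was 3.78 with a pseudocount of 0.1 and 6.27 with voom, so the size of its difference is uncertain and its direction was the same. FSTL3, at 6.31 ± 0.729 FPKM with UDCA and 7.07 ± 0.858 FPKM in control, and NBL1, at 4.89 ± 0.656 FPKM with UDCA and 5.45 ± 0.369 FPKM in control, did not pass.

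Other genes that BMPs induce in one tissue or another went both ways, 5 of 8 higher, 2 lower and 1 that did not pass. Calls thus covered 87.5% of them, near the 80.8% of all tested genes. DLX2, a homeobox gene of forebrain interneurons, stood at 38.1, 38.8 and 38.8 FPKM in UDCA libraries, against 5.06, 5.07 and 5.07 FPKM in control libraries (log2 change 2.71, SE 0.025, adjusted p = 9.02e-10, limma-trend). MSX1, a homeobox gene of limb and face, stood at 9.85, 10.3 and 8.98 FPKM with UDCA, against 1.02, 1.21 and 1.52 FPKM in control, 7.78-fold higher. ATOH8, a bHLH gene that follows BMP signals in liver and endothelium, was 4.92-fold lower (log2 change -2.04). It stood at 3.53, 3.81 and 4.09 FPKM in UDCA libraries, against 18.8, 19.5 and 18.0 FPKM in control libraries. The other lower gene was DLX5, a homeobox gene of bone and forebrain, at 0.322, 0.168 and 0.135 FPKM in UDCA libraries, against 3.30, 2.83 and 3.71 FPKM in control libraries. It was tested through the control libraries alone (log2 change -1.82, or -3.49 with a pseudocount of 0.1). RUNX2, the bone master factor, stood at 2.15 ± 0.116 FPKM with UDCA and 2.14 ± 0.237 FPKM in control (log2 change 0.0049, 95% interval -0.17 to 0.18).

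Of 6 tested bHLH factors and ID partners, none was higher, 4 were lower and 2 did not pass. The lower ones made up 66.7%, against 35.7% of all tested genes lower and 80.8% called. That share includes TCF4, which passed the filter through the control libraries alone and so could not have been called higher. TCF4, the E protein E2-2, stood at 0.499, 0.413 and 0.402 FPKM in UDCA libraries, on 222, 196 and 190 reads, against 5.04, 4.95 and 4.76 FPKM in control libraries, on 2333, 2369 and 2348 reads, and so was tested through the control libraries alone (log2 change -2.04, or -3.49 with voom; 11.2-fold lower by the means). TCF3, the E protein of E12 and E47, did not pass at 16.5 ± 0.264 FPKM with UDCA and 16.1 ± 0.636 FPKM in control (log2 change 0.036, 95% interval -0.048 to 0.12; -0.050 with median-ratio scaling). HES1, a repressor downstream of Notch whose protein can pair with ID proteins, was 1.56-fold lower, at 7.88 ± 0.984 FPKM with UDCA and 12.3 ± 0.824 FPKM in control. TWIST1, a mesenchymal bHLH factor, was 1.20-fold lower, and OLIG2, the oligodendrocyte and glioma factor, did not pass at 4.81 ± 0.160 FPKM with UDCA and 4.59 ± 0.509 FPKM in control.

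**Figure D4:**
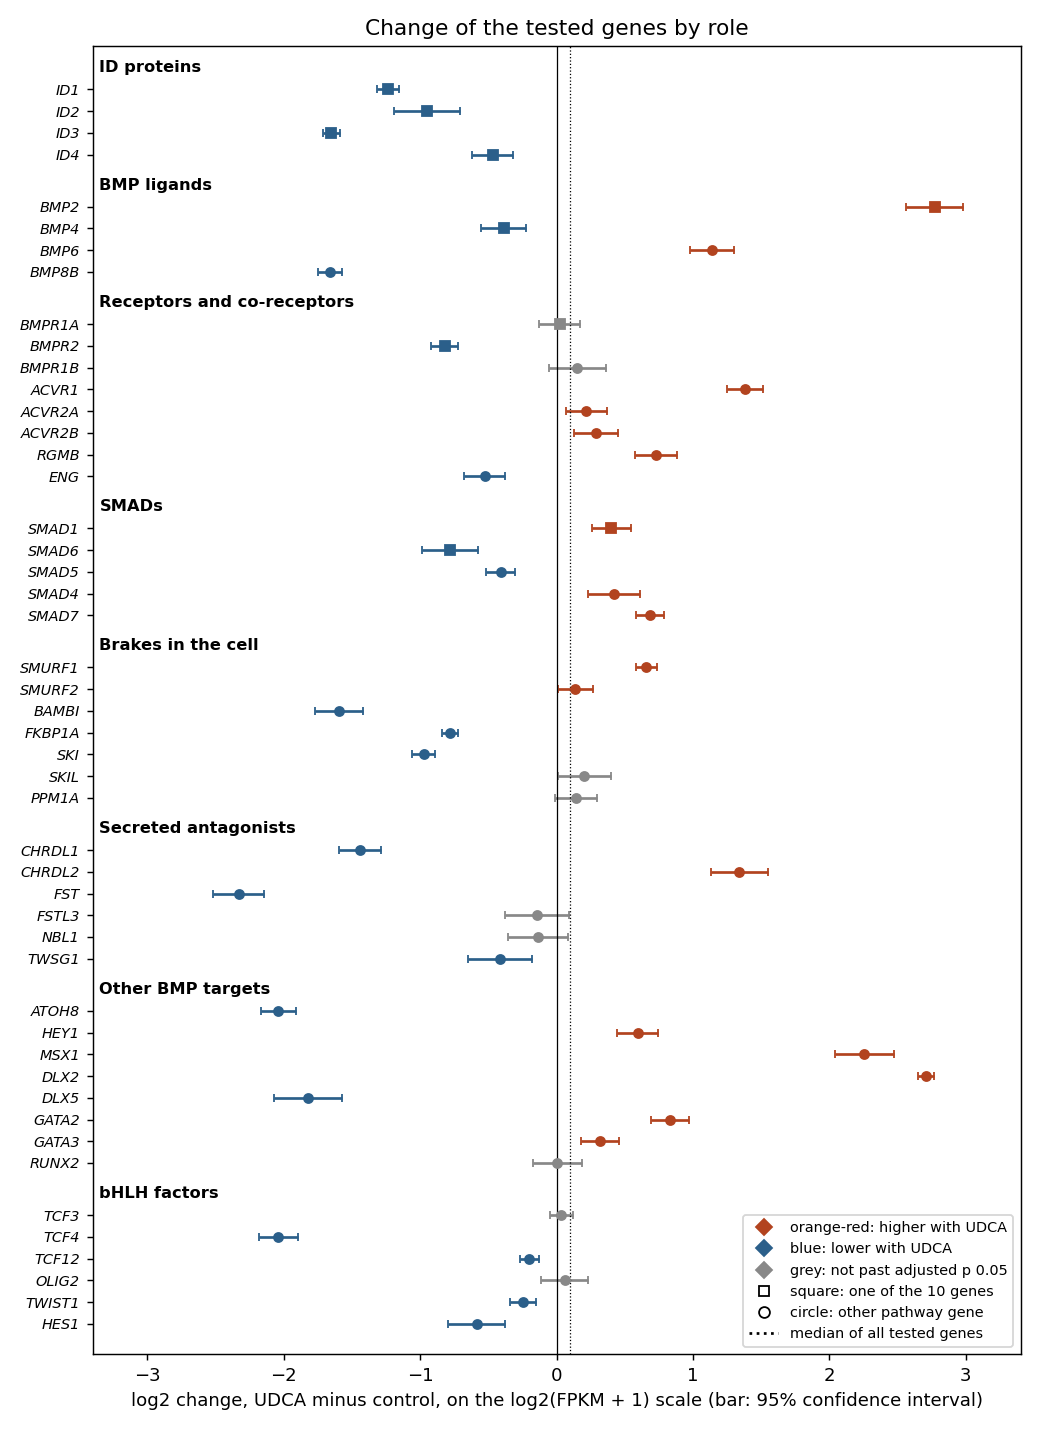
Log2 change (UDCA minus control, from log2(FPKM + 1), horizontal axis), with 95% confidence intervals, for the 48 tested genes of the pathway ordered by role (vertical axis). Squares are the 10 genes, circles the other 38; all 4 ID genes lie left of 0 between -1.65 and -0.47, and BMP2 lies furthest right at 2.77.

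The genes whose level and difference together were closest to each ID gene, by the root mean square difference of log2(FPKM + 1) over the 6 libraries, are given as a description. Closest to ID1 were the tubulin genes TUBB and TUBB4B and ATP5F1B, at 0.14, 0.16 and 0.18. Closest to ID2 were PRPF31, PTPN14 and TWIST2, at 0.11, 0.12 and 0.12. Closest to ID3 were FAM3C, FASN and ACTN4, at 0.060, 0.12 and 0.12, and closest to ID4 were MESD, SLC35B4 and EPN1, at 0.057, 0.066 and 0.069. The 6 points share just 2 conditions, so any gene of like level and like difference comes out close.

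Recovered reads came to 15988951 to 17045218 per UDCA library and 16639832 to 17743022 per control library, so depth was alike. Of 9 glioma and glia markers, 7 were tested, 1 higher and 5 lower (of all tested genes, 45.1% were higher and 35.7% lower). The 9 markers summed to 164 to 167 FPKM in UDCA libraries and 749 to 765 FPKM in control libraries. The higher one was EGFR, at 9.06 to 9.33 FPKM with UDCA and 6.62 to 6.93 FPKM in control, and OLIG2 did not pass. S100B stood at 12.5 to 12.6 FPKM with UDCA and 275 to 295 FPKM in control, SOX2 at 2.48 to 2.66 FPKM with UDCA and 75.8 to 78.7 FPKM in control, and NES at 26.7 to 27.2 FPKM with UDCA and 143 to 152 FPKM in control. VIM stood at 64.2 to 65.8 FPKM with UDCA and 165 to 169 FPKM in control, CD44 at 42.9 to 44.7 FPKM with UDCA and 64.6 to 65.6 FPKM in control, while GFAP and CHI3L1 stayed under 1 FPKM throughout. Of the markers of other cells, all 4 of endothelium and all 5 of leukocytes were under 1 FPKM in every library. The 5 epithelial markers summed to 5.52 to 6.15 FPKM with UDCA and 5.99 to 6.77 FPKM in control, the 5 fibroblast markers to 9.30 to 10.1 FPKM with UDCA and 18.9 to 19.3 FPKM in control, and the 3 neuronal markers to 17.7 to 20.4 FPKM with UDCA and 10.5 to 11.6 FPKM in control. In each of these 3 lists 2 markers were tested, 1 higher and 1 lower, so the sums hide opposite moves. KRT8 was higher (5.39 to 5.94 FPKM with UDCA, 3.36 to 3.87 FPKM in control) and KRT14 lower (0.026 to 0.027 FPKM with UDCA, 2.62 to 2.99 FPKM in control). KRT14 passed the filter through the control libraries alone and so could not have been called higher. PDGFRB was higher (2.68 to 3.17 FPKM with UDCA, 1.54 to 1.86 FPKM in control) and LUM lower (6.13 to 6.65 FPKM with UDCA, 15.3 to 15.5 FPKM in control). The untested fibroblast markers also stood lower with UDCA, at low levels. COL1A1 was at 0.108 to 0.140 FPKM with UDCA and 0.863 to 1.30 FPKM in control. DCN was at 0.156 to 0.183 FPKM with UDCA and 0.842 to 0.955 FPKM in control, and COL1A2 at 0 FPKM with UDCA and 0.011 to 0.052 FPKM in control. Among neuronal markers SYT1 was higher (13.7 to 15.4 FPKM with UDCA, 4.73 to 5.12 FPKM in control) and SNAP25 lower (3.79 to 4.96 FPKM with UDCA, 5.69 to 6.53 FPKM in control). Mitochondrially encoded genes held 0.026% to 0.027% of reads in UDCA libraries and 3.13% to 3.16% in control libraries. The part of these shifts in the results above was not tested, and in RNA from whole cultures fewer cells with a transcript and less of it per cell cannot be told apart.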

How the data were processed

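Polyadenylated RNA of 6 LN229 libraries was prepared with the Illumina TruSeq kit, per the labels' protocols. HISAT2, Bowtie2 2.0.6 and GRCh38 are named, with no role, per the submitters' processing notes; no source used here names the counting program or how strand was handled. The values deposited by the authors were read as FPKM. Scaled by merged exon length (GENCODE 29) and divided by a constant for its library, 1 read's worth, 100% of values came out as whole reads (tolerance 0.01 reads), and these recovered reads sum to the totals in the report; 3 reads in a gene of 1 kb equal 0.169 to 0.188 FPKM, for counting error only.

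Tests covered genes that reached 1 FPKM in 3 or more libraries, and ran on log2(FPKM + 1) with limma-trend (limma 3.58.1, R 4.3.3), group as the only term, all 6 libraries, 2-sided, Benjamini-Hochberg over all tested genes. This scale understates changes of low genes. Folds are ratios of mean FPKM. Shares used exact permutation tests over libraries (SciPy 1.17.1). Plots used matplotlib 3.10.9. The fit was also run on simulated data with far fewer changed genes than were called here. That run does not test the fit under so broad a change. Promoters came from the RefSeq table (GRCh38.p14), which matched 9 of the 10 genes. Overlap between genes was taken from exons on either strand.

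The 10 genes and the role lists were chosen with earlier results of these data known. Named from each list were up to 3 called genes with the largest change whose higher mean reached 1 FPKM, and the tested genes that were not called. NOG, CHRD, ACVRL1, HAMP, BMP8A, DLX5, RGMA, SMURF1 and SMURF2 were named outside that rule, after their values were seen. Within groups, chi-square over degrees of freedom was 1.67 to 2.73 for pairs of libraries (genes of 20 or more reads), above sampling noise. Each library counted as 1 sample, though the labels do not say whether libraries came from separate cultures. Alternatives were median-ratio scaling, quantile normalization, no filter, a pseudocount of 0.1, a replicate block, leaving out each library, and limma's voom on recovered reads.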

Additional observations from a re-analysis of the deposited data

How the results depend on the processing

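Across the 12 alternatives, the 10 genes kept 9 calls in each, and the 9 called genes kept their direction. The calls over all genes numbered 11624, and ran from 11218 to 11381 when a library was left out; they were 11602 with median-ratio scaling, 14451 without the filter on low values and 11818 with voom. Calls among the other pathway genes numbered 30, and 28 to 32 when a library was left out. They numbered 28 with median-ratio scaling. Signs were followed gene by gene for 38 genes, the 10 and those named by rule from the lists. Among them, signs turned only for genes that were not called. BMPR1A stood at -0.047 with median-ratio scaling, and at -0.035 to 0.055 when a library was left out. RUNX2 stood at -0.057 with median-ratio scaling, -0.019 with quantile normalization, and -0.055 to 0.053 when a library was left out. TCF3 stood at -0.050 with median-ratio scaling and -0.042 with quantile normalization. OLIG2 stood at -0.017 with median-ratio scaling. The cause was not tested. Of these 38 genes, 31 kept direction and call throughout. The shares kept their direction: leaving out a library gave -57.8 to -53.05 percentage points for BMP4, 3.75 to 4.47 for ID1, 0.200 to 0.759 for ID2, -7.02 to -6.27 for ID3 and 1.95 to 2.12 for ID4.

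Same-numbered libraries did not deviate together (correlations of 0.014, -0.0012 and 0.0072 for numbers 1 to 3), and no library correlated best with its own number. With a replicate block, 11503 genes, 9 of the 10 genes and 33 of the other pathway genes were called, SKIL (adjusted p = 0.0468), PPM1A (0.0408) and FSTL3 (0.0241) among them. Depth limits the lowest genes most: of the 10 genes, BMP2 rested on 300 reads in control, BMP4 on 371 with UDCA and SMAD1 on 507 in control.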
